A study of Mus musculus with 36 samples.

Results

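Epicardial and mesothelial genes were followed through mouse heart development in 10 genes, Upk1b, Upk3b, Wt1, Tcf21, Krt8, Krt18, Krt19, Dmkn, Lrrn4 and Msln. Each gene was measured by every array probe set annotated to its symbol and to no other, which gave 17 probe sets, of 34945 probe sets for 18193 genes with a single symbol. Upk1b had 4 probe sets, Krt8 had 3, Upk3b and Tcf21 had 2 each, and the remaining 6 genes had 1 each. All 17 passed the filter on low values, which kept 27256 probe sets. The samples were Affymetrix arrays of hearts from C57BL/6 embryos, with no mutant allele and no treatment named in the labels.

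Atrial and ventricular tissue was arrayed separately daily between embryonic days E12.5 and E14.5, then on E16.5 and lastly on E18.5. At E10.5 and E11.5 the head and tail ends had been cut away and the middle of the embryo, heart included, was used, although the source field calls these samples whole heart. They are called the heart region here and hold body wall and other organs. Each of the 12 groups had 3 arrays. Nothing in the labels tells separate animals or pools from repeat hybridisations. A p-value here thus sets a difference only against the spread of arrays within groups, pooled over all 12 groups. That spread may be technical. The arrays titled E16.5 give day 15.5 in their description, and the title was followed. Values are intensities on a linear scale, and a log2 difference is between means of log2(intensity + 17), given with its standard error (SE) from the model. Levels of different probe sets were not set against each other.

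The epicardium is the mesothelial sheet that covers the heart. It is an epithelium with keratin filaments, and it spreads over the myocardium from the proepicardium, a cluster of mesothelial cells at the venous pole. Some of its cells leave the sheet and give rise to fibroblasts and mural cells of the vessels. The same kind of sheet lines the pericardium, the pleura and the outside of the lung, gut and liver, so transcripts of these genes mark mesothelium in general and not the heart surface alone. In whole chambers, fewer cells of a type and less RNA per cell cannot be told apart.

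All 17 probe sets of the 10 genes were higher in atria than in ventricles in the mean of the 5 ages, against 20.9% of all tested probe sets called higher, 21.5% called lower and 42.4% called in either direction. The differences ran from 0.20 to 1.91 on the log2 scale with a median of 1.0, beside a median of -0.01 over all tested probe sets. Upk3b and Lrrn4 had the smallest adjusted p-values, and Wt1 and 1 of the Tcf21 probe sets had the smallest differences. The tests were limma's moderated test with Benjamini-Hochberg adjustment over the 27256 probe sets, called at an adjusted p below 0.05. The 10 genes were chosen with earlier results of these data known, so counts of them are descriptions only. The Tcf21 probe set 1458887_at had a difference of 0.20 ± 0.08 SE (adjusted p = 0.0488) and lost the call under many alternatives, among them leaving out 1 array. The other 16 kept theirs in every alternative in which they were tested, and the filter at the 75th percentile left Krt8 1435989_x_at and Tcf21 1458887_at untested, with the remaining 15 called.

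**Figure D1:**
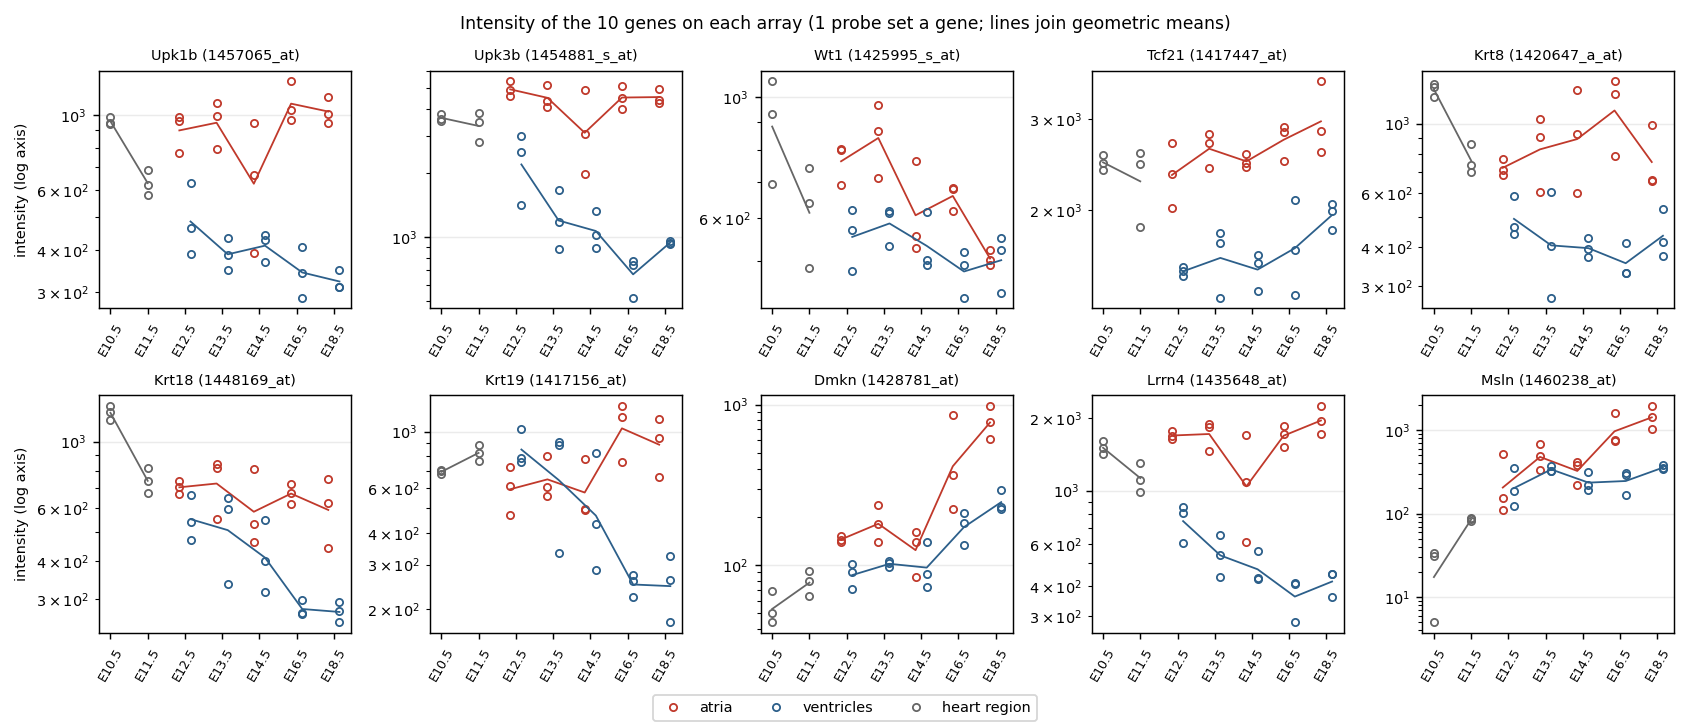
Intensity of the 10 genes on each array, 1 panel a gene, with age on the horizontal axis and intensity on a log axis. Each open circle is 1 array, atria in red, ventricles in blue and the heart region in grey, and lines join the geometric means of 3 arrays. In Upk3b, Lrrn4 and Tcf21 the red circles lie above the blue ones of the same age throughout. In Krt19 and Msln they do so only on the 2 last ages.

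Promoter sequences are shown for 2 genes with large chamber differences, Upk3b and Lrrn4, and for the partner keratins Krt8 and Krt18, which lie next to each other on chromosome 15 with 0 protein-coding genes between them. They are the 250 bases before the transcription start, from RefSeq on build GRCm38.p6, 5′ to 3′ on the gene's strand. An entry was at hand for 6 of the 10 genes. Capitals mark matches, on either strand, to any of 6 short motifs. TEAD factors bind the core GGAATG. For GATA factors the letters searched were AGATAA. The E-box of bHLH factors such as Tcf21 and Hand2 is CANNTG. The GC box of Sp factors was searched as GGGCGG. The box that places the start of many promoters was searched as TATAAA. The factor NF-Y binds CCAAT. The Upk3b stretch is chr5:136038246-136038495 on the plus strand, that of Lrrn4 is chr2:132880863-132881112 on the minus strand, that of Krt8 is chr15:102004343-102004592 on the minus strand and that of Krt18 is chr15:102027966-102028215 on the plus strand.
Upk3b: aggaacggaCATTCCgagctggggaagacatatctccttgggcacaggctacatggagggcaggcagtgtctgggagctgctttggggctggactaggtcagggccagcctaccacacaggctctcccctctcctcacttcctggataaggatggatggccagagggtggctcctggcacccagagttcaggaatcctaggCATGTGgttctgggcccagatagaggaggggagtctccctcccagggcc
Lrrn4: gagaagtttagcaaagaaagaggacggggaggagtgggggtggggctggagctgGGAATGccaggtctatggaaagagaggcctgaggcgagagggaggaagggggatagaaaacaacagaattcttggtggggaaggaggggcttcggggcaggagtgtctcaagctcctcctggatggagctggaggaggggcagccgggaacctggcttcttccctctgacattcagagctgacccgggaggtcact
Krt8: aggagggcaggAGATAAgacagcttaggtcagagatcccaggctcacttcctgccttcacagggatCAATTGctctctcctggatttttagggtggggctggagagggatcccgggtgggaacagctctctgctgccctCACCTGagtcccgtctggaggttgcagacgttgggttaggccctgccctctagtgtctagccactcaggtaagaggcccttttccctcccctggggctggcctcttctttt
Krt18: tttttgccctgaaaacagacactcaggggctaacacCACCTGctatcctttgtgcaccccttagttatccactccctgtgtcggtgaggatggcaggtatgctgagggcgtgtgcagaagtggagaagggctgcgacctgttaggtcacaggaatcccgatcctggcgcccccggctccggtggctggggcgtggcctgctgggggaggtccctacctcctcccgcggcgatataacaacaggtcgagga

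The TEAD core was found once in Upk3b, with its first base at -241 from the start, and once in Lrrn4 at -196, and 12.6% of all 32851 promoters of that length hold it. An E-box was present at -49 in Upk3b, at -184 and -111 in Krt8 and at -214 in Krt18, and 66.2% of promoters hold one. The GATA core was at -239 in Krt8, against 10% of promoters. The GC box, the TATA box and CCAAT were not in these 4 stretches, and 32.7%, 12.4% and 33.8% of promoters hold them. No match overlapped another in them. Tcf21 and Dmkn, whose stretches are not shown, held no TEAD core, and Tcf21 held the GATA core at -31. These matches describe the letters only.

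Upk3b encodes a uroplakin, a membrane protein first known from the bladder lining and also made by mesothelium. Its probe set 1454881_s_at read 4895, 4581 and 5382 in atria at E12.5, against 2525, 1410 and 2974 in ventricles. At E13.5 it read 5159, 4340 and 4095 in atria, against 883, 1661 and 1174 in ventricles. At E14.5 it read 1982, 3055 and 4881 in atria, against 892, 1333 and 1030 in ventricles. The chambers did not overlap at any of these ages, and the atria of E14.5 were the most spread out. At E16.5 the atria gave 5147, 4501 and 3994, against 521, 778 and 742 in ventricles. At E18.5 the atria gave 4286, 4425 and 4953, against 940, 934 and 964 in ventricles. In the heart region the probe set read 3577, 3802 and 3526 at E10.5 and 3821, 3463 and 2786 at E11.5. These earlier samples lay between the atria and the ventricles of E12.5 in their means, and array 3 of E11.5 read below the highest ventricular array.

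The mean chamber difference of Upk3b was 1.91 ± 0.11 SE on the log2 scale, or 3.76-fold (adjusted p = 2.88e-14). Taken in order of age it was 1.16, 1.90, 1.52, 2.72 and 2.24, each ± 0.24 SE, and all 5 were called. The second probe set of Upk3b, 1434237_at, gave a mean difference of 1.68 ± 0.11 SE. In the order of the 12 groups, the atria of E12.5, E18.5, E16.5 and E13.5 came first, with group means between 4530 and 4950, and neighbours among these 4 overlapped. The heart regions of E10.5 and E11.5 and the atria of E14.5 followed, with means of 3640, 3360 and 3310. The 5 ventricular groups came last, from 2300 at E12.5 to 680 at E16.5. Of the 11 pairs of neighbours in this order, 9 overlapped.

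Upk1b, the tetraspanin uroplakin that pairs with uroplakins of the Upk3 type, was called higher in atria by all 4 of its probe sets in the mean of the ages. The differences were 1.65 ± 0.12 SE for 1435831_at, 1.32 ± 0.11 for 1455464_x_at, 1.19 ± 0.09 for 1457065_at and 0.59 ± 0.08 for 1439760_x_at. The suffix x is the array maker's mark for probes that may bind further transcripts. Probe set 1435831_at read 604, 824 and 883 in atria at E18.5, against 154, 158 and 146 in ventricles. At E12.5 it read 442, 383 and 558 in atria, against 298, 189 and 260 in ventricles. The atrial arrays were above the ventricular ones at both ages, with a wider gap at E18.5. The E12.5 difference of this probe set, 0.85 ± 0.27 SE (adjusted p = 0.0455), lost its call when array 1 or 3 of the E12.5 atria or array 2 or 3 of the ventricles was left out, with adjusted p-values up to 0.18.

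Lrrn4, a leucine-rich repeat membrane protein that marks mesothelium, was likewise higher in atria throughout. It read 1719, 1942 and 2245 in atria at E18.5, against 449, 362 and 451 in ventricles. At E12.5 it read 1765, 1637 and 1685 in atria, against 853, 605 and 806 in ventricles. No ventricular array of any age exceeded 853, and the lowest atrial array, array 1 of E14.5, read 612. The mean difference was 1.66 ± 0.10 SE (adjusted p = 5.05e-14), and all 5 ages were called. At E14.5 alone the difference was 1.12 ± 0.22 SE.

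Msln encodes mesothelin, a surface glycoprotein of mesothelial cells that binds Muc16. In the heart region it read 34, 31 and 5 at E10.5 and 88, 82 and 85 at E11.5. At E12.5 it read 152, 110 and 514 in atria, against 188, 354 and 123 in ventricles, which overlapped. At E18.5 it read 1019, 1443 and 1924 in atria, against 340, 377 and 348 in ventricles. The chambers were thus apart at E18.5 and mixed at E12.5. The chamber difference in order of age was 0.03, 0.48, 0.44, 1.90 and 1.95, each ± 0.41 SE, and the last 2 were called. Among the 12 groups the E10.5 heart region was lowest, with a mean of 23.1, and the E18.5 atria were highest, with 1460.

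Dmkn encodes dermokine, a secreted protein best known from the epidermis. It read 69, 50 and 44 in the E10.5 heart region. At E12.5 it read 139, 152 and 143 in atria, against 90, 71 and 102 in ventricles. At E18.5 it read 609, 779 and 978 in atria, against 229, 223 and 295 in ventricles. Dmkn was called higher in atria at E16.5 (1.19 ± 0.30 SE) and E18.5 (1.58 ± 0.30 SE), and the atrial arrays of E16.5 ranged widely, with 860, 366 and 224. Without array 1 of the E16.5 atria the E16.5 difference was 0.68 and not called (adjusted p = 0.10).

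The keratins form the filaments of simple epithelia, in which the type II keratin Krt8 pairs with the type I keratins Krt18 and Krt19. Krt8 was higher in atria in the mean of the ages by all 3 probe sets, with 1.0 ± 0.11 SE for 1420647_a_at, 1.71 ± 0.21 for 1423691_x_at and 1.14 ± 0.18 for 1435989_x_at. Over all ages 1420647_a_at had a lowest, median and highest value of 599, 785 and 1367 in atria, against 276, 412 and 603 in ventricles. The other probe sets were low in ventricles, with medians of 92 for 1423691_x_at and 100 for 1435989_x_at, against 388 and 258 in atria. Both ventricular medians lay below 171.8, the overall median used in the filter. Krt18 differed by 0.73 ± 0.10 SE, with 443, 624 and 754 in atria at E18.5, against 273, 251 and 293 in ventricles. It was called at E16.5 and E18.5 alone among the 5 ages.

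For Krt19 the chambers stood in opposite order at the first and the last ages, although the first difference was not called. At E12.5 it read 472, 610 and 727 in atria, against 791, 759 and 1025 in ventricles. At E16.5 it read 1259, 1140 and 762 in atria, against 258, 273 and 224 in ventricles. At E18.5 it read 663, 945 and 1120 in atria, against 326, 178 and 260 in ventricles. All ventricular arrays of E12.5 were above the atrial ones, and at E16.5 and E18.5 all atrial arrays were above the ventricular ones. The differences in order of age were -0.51, 0.00, 0.29, 1.97 and 1.78, each ± 0.31 SE, and only the last 2 were called.

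Wt1 and Tcf21 encode transcription factors, a zinc finger protein needed for a normal epicardium and a bHLH protein needed for the fibroblasts that come from it. Both are also expressed in other mesenchyme and mesothelium. Wt1 read 691, 805 and 800 in atria at E12.5, against 570, 622 and 481 in ventricles. At E18.5 it read 524, 503 and 492 in atria, against 524, 553 and 438 in ventricles. The chambers were apart at E12.5 and overlapped fully at E18.5. The mean difference of Wt1 was 0.32 ± 0.07 SE (adjusted p = 0.000444), and in order of age it was 0.45, 0.51, 0.18, 0.45 and 0.01, each ± 0.16 SE. Only E13.5 and E16.5 were called, and leaving out any 1 array of those ages other than array 3 of the E13.5 atria ended the call, with adjusted p-values between 0.051 and 0.17.

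Tcf21, by its probe set 1417447_at, was higher in atria at each of the 5 ages, by 0.62, 0.70, 0.69, 0.69 and 0.60 in order of age, each ± 0.14 SE. At E18.5 it read 2593, 2845 and 3549 in atria, against 1986, 2055 and 1828 in ventricles. At E12.5 it read 2017, 2344 and 2698 in atria, against 1487, 1548 and 1524 in ventricles. The second probe set, 1458887_at, read between 197 and 345 in atria, against 158 to 312 in ventricles, and was called at E13.5 alone among single ages (0.58 ± 0.18 SE), a call that was lost under most alternatives.

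At E12.5, 7 of the 17 probe sets were called higher in atria, against 4.4% of all tested probe sets called higher and 9.67% called in either direction. The 7 belonged to Upk1b, Upk3b, Tcf21 and Lrrn4. On day 13.5 there were 11, against 5.87% of all called higher and 12.1% called either way. On day 14.5 there were 7, against 3.8% and 6.18%. At E16.5 there were 16, against 8.55% and 16.9%, and on day 18.5 there were 15, against 11% and 19.5%. None of the 17 was called lower at any age, where 5.27%, 6.27%, 2.38%, 8.32% and 8.53% of all tested probe sets were, in order of age. All 3 atrial arrays stood above all 3 ventricular arrays in 12, 11, 7, 16 and 15 of the 17 in order of age, and this held for 9.79%, 18.3%, 9.56%, 14.7% and 21.1% of all tested probe sets. Without array 2 of the E12.5 ventricles the E12.5 count was 4, and without array 3 of the E14.5 atria the E14.5 count was 4. When only the arrays of 1 age were fitted, the count was 1 at E12.5 and 0 at E14.5. Calls over all 27256 tested probe sets also fell in these fits, to 279 and 29, from 2637 and 1684. In the fit of all 36 arrays 10 of the 17 had an unadjusted p below 0.05 at each of these ages. That count was not made over all tested probe sets.

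**Figure D2:**
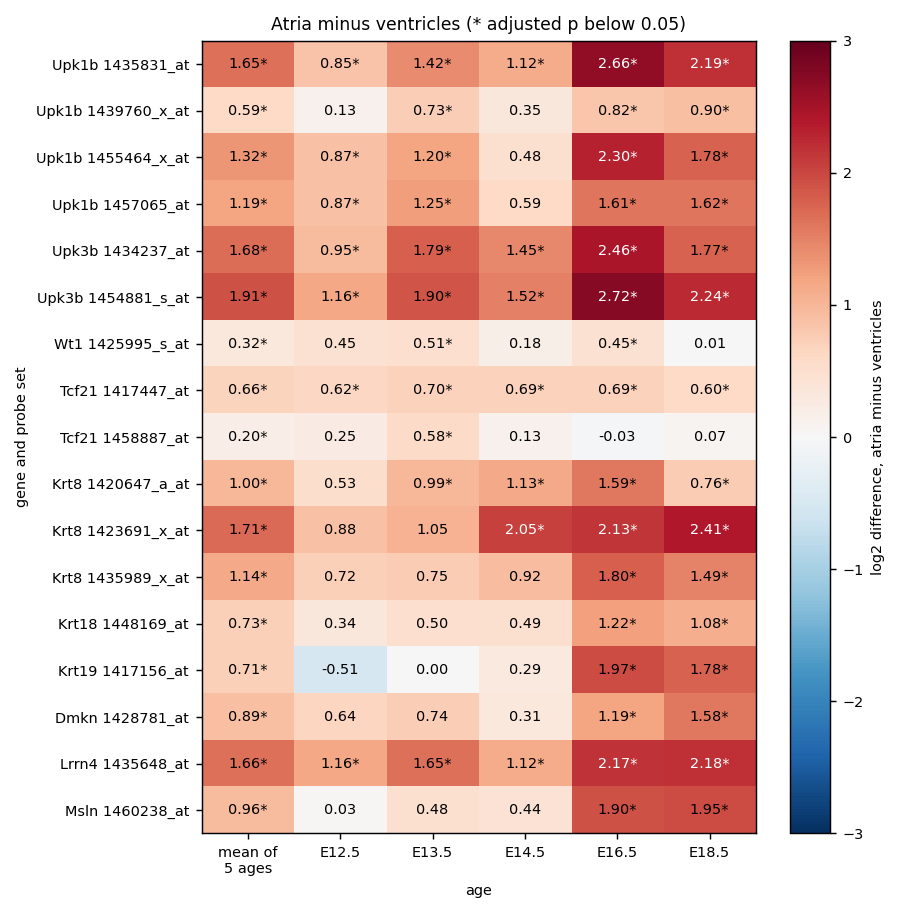
Difference between atria and ventricles for the 17 probe sets (rows), as the mean of 5 ages and at each age (columns), on the log2 scale, with red for higher in atria. An asterisk marks an adjusted p below 0.05, and the highest value is 2.72 for Upk3b at E16.5. Krt19 at E12.5 is the one value well below 0, at -0.51.

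E18.5 was then set against E12.5 within each chamber. In atria, Dmkn and Msln rose and Wt1 fell by E18.5, and the other 14 probe sets were not called, against 12.6% of all tested probe sets called higher, 11.7% called lower and 24.3% in all. Dmkn was higher at E18.5 by 2.29 ± 0.30 SE (adjusted p = 6.8e-06) and Msln by 2.67 ± 0.41 SE (adjusted p = 3.13e-05). Wt1 fell by 0.58 ± 0.16 SE on the log2 scale (adjusted p = 0.00718). Upk3b had -0.12 ± 0.24 SE by 1454881_s_at and Lrrn4 had 0.21 ± 0.22 SE. Without array 3 of the E12.5 atria or without array 1 of the E18.5 atria the count of called probe sets was 5.

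In ventricles, 7 of the 17 probe sets were lower at E18.5 than at E12.5 and 2 were higher, against 16% and 12.7% of all tested probe sets and 28.7% in all. Krt19 fell by 1.72 ± 0.31 SE on the log2 scale (adjusted p = 0.000108) and Upk3b fell by 1.20 ± 0.24 SE (adjusted p = 0.000406). Krt18 fell by 0.98 ± 0.21 SE and Lrrn4 fell by 0.81 ± 0.22 SE. The remaining lower probe sets were Krt8 1423691_x_at, Upk3b 1434237_at and Upk1b 1457065_at, with -1.27, -0.68 and -0.56. Dmkn was higher at E18.5 by 1.35 ± 0.30 SE and Tcf21 1417447_at by 0.36 ± 0.14 SE (adjusted p = 0.046), and the Tcf21 call was lost without any 1 of the 6 arrays. Without array 1 or array 3 of the E12.5 ventricles the count of called probe sets was 5 in place of 9.

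The test of the difference between the chambers in this change called 2 of the 17, against 3.78% of all tested probe sets. Krt19 differed by 2.28 ± 0.44 SE, with 0.57 ± 0.31 in atria and -1.72 ± 0.31 in ventricles (adjusted p = 0.0026). Upk1b 1435831_at differed by 1.34 ± 0.39 SE, with 0.72 ± 0.27 in atria and -0.63 ± 0.27 in ventricles (adjusted p = 0.0457). Of the 12 fits that left out 1 array, 9 lost the Upk1b call and none lost that of Krt19. Lrrn4 (1.02 ± 0.31 SE), Msln (1.91 ± 0.58 SE) and Upk3b 1454881_s_at (1.08 ± 0.34 SE) had adjusted p-values of 0.0583, 0.0562 and 0.0723. Without array 2 of the E12.5 ventricles the count was 5, with Lrrn4, Upk3b 1454881_s_at and Upk1b 1455464_x_at called as well.

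**Figure D3:**
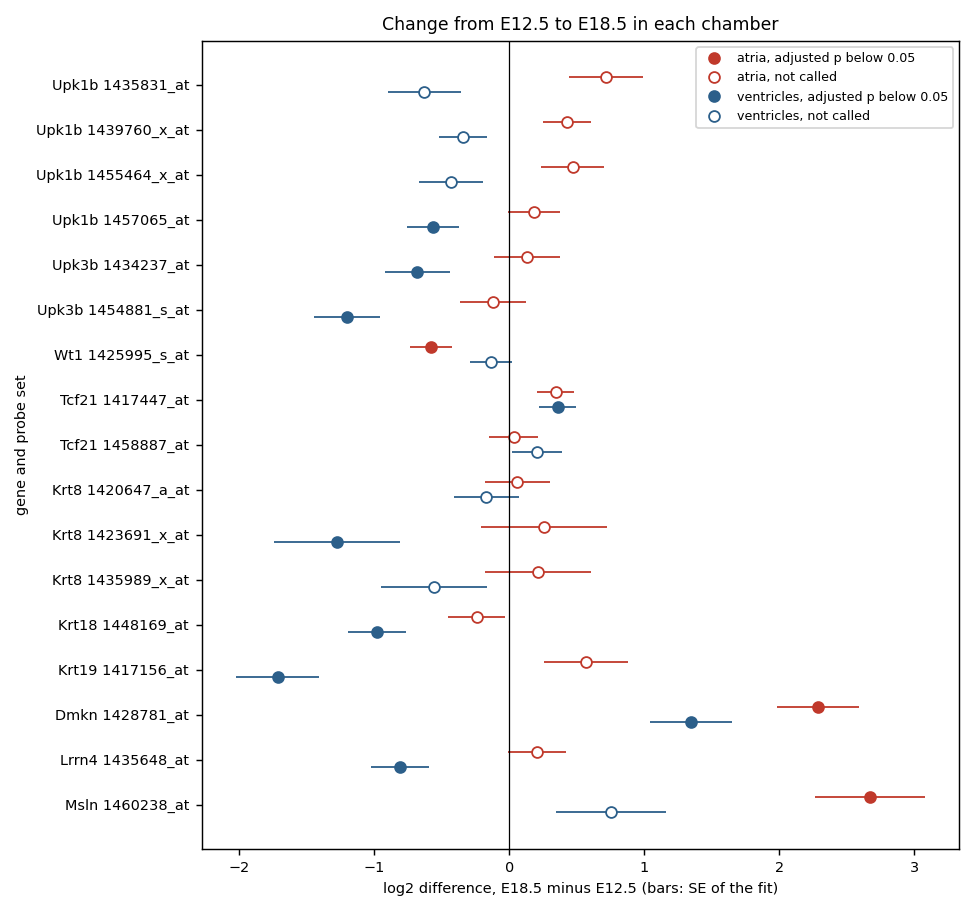
Log2 difference of E18.5 minus E12.5 for the 17 probe sets (rows), with atria in red above ventricles in blue and the standard error of the fit as bars. Filled points have an adjusted p below 0.05. Krt19 and Upk3b sit left of 0 in ventricles and near 0 or right of it in atria, and Dmkn lies to the right in both.

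A test of any change over the 5 ages called 7 of the 17 in atria, against 17.4% of all tested probe sets, from Dmkn, Lrrn4, Msln, Wt1 and 3 of the Upk1b probe sets. In ventricles it called 6, against 24.6%, from Dmkn, Krt18, Krt19, Lrrn4 and both Upk3b probe sets. When only the atrial arrays of these ages were fitted, Lrrn4, Upk1b 1457065_at and Upk1b 1435831_at lost their atrial calls (adjusted p = 0.15, 0.19 and 0.089). Wt1 lost its atrial call under median centring (adjusted p = 0.05 after rounding). In the atria Lrrn4 had its lowest mean at E14.5, with 612, 1084 and 1703. Its call was lost without array 1 of the E14.5 atria (adjusted p = 0.34), without array 2 (0.065), without array 3 of the E18.5 atria (0.057), without the 3 arrays with high lung genes (0.06) and without those with high Myl2 (0.92). Upk1b 1457065_at lost its call without array 1 of the E14.5 atria (adjusted p = 0.32), without array 2 (0.064), without array 1 of E16.5 (0.055), without array 3 of E18.5 (0.054) and without the arrays with high Myl2 (0.96). Without those last arrays Dmkn and Msln alone were called in atria.

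Between the heart regions of E11.5 and E10.5 none of the 17 was called by limma, against 1.16% of all tested probe sets. In the same fit 9 of the 17 had an unadjusted p below 0.05, a count not made over all tested probe sets. Krt18 had -0.74 ± 0.21 SE (adjusted p = 0.0893), with 739, 815 and 676 at E11.5, against 1253, 1178 and 1311 at E10.5. Krt8 1420647_a_at had -0.75 ± 0.24 SE and Msln had 1.45 ± 0.41 SE (adjusted p = 0.0792). The 2 ages did not overlap in Krt18, Msln or Krt8 1420647_a_at, nor in further probe sets, among them Lrrn4 and Krt19. Lrrn4 was lower at E11.5, and Krt19 was higher, with 766 to 886 against 679 to 704 at E10.5. The share of all tested probe sets without overlap was not counted. When only these 6 arrays were fitted, 9 of the 17 were called, and calls over all 27256 tested probe sets rose from 315 to 2218. Between both chambers of E12.5 and the heart region of E11.5 none was called, against 0.936% of all. Msln and Tcf21 1417447_at, 2 of the 17, had an unadjusted p below 0.05, again with no such count over all tested probe sets. The tissue sampled also differs in this comparison.

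A list of 20 further genes known from epicardium or mesothelium gave 19 tested genes, and Sbspon had no tested probe set. This list was also chosen with earlier results of these data known, so its counts are descriptions only. In the mean of the 5 ages 15 were higher in atria, 2 were lower and 2 were not called, with a median of 0.94, against 20.9% of all tested probe sets called higher and 21.5% called lower. Aldh1a1 and Aldh1a2, enzymes that make retinoic acid, were higher by 2.39 ± 0.17 and 0.82 ± 0.08 SE. The membrane glycoprotein Gpm6a was higher by 1.78 ± 0.11 SE, the keratin Krt7 by 1.61 ± 0.14, the matrix protein Efemp1 by 1.54 ± 0.12 and the basonuclins Bnc1 and Bnc2 by 1.38 ± 0.12 and 1.58 ± 0.17. Anxa8, an annexin, and Nkain4 were higher by 1.17 ± 0.15 and 1.01 ± 0.10. Aldh1a2 and the genes of this list first named below were chosen after their values were seen. Among them Muc16, the binding partner of mesothelin, was higher by 1.01 ± 0.12. Scx, a bHLH factor best known from tendon, was lower in atria than in ventricles by 0.71 ± 0.16 on the log2 scale. Ezr, which links actin to the membrane, was lower in atria by 0.31 ± 0.04. Tbx18, a T-box factor of the proepicardium and the sinus horns, had 0.17 ± 0.08 (adjusted p = 0.0767), and Clu had -0.15 ± 0.10.

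Between the first and the last chamber age, E12.5 and E18.5, 7 of these 19 rose and 3 fell in atria, against 12.6% and 11.7% of all tested probe sets. In ventricles 1 rose and 9 fell, against 12.7% and 16% of all. Those that fell in ventricles included Bnc1, by 1.79 ± 0.26 SE on the log2 scale, Aldh1a1, by 1.69 ± 0.38, and Rspo1, an enhancer of Wnt signalling, by 1.33 ± 0.18. In atria Clu rose by 1.86 ± 0.23 SE and Cldn15, a claudin, by 1.33 ± 0.19. Tbx18 fell there by 1.11 ± 0.17 SE and Gpc3, a heparan sulfate proteoglycan, by 1.15 ± 0.15. The change differed between the chambers in 6 of the 19, against 3.78% of all tested probe sets, with Clu (2.49 ± 0.33), Aldh1a1 (1.91 ± 0.54), Nkain4 (1.58 ± 0.31), Rspo1 (1.10 ± 0.26) and Pdpn (0.99 ± 0.18) moving upward in atria relative to ventricles and Aldh1a2 (-1.03 ± 0.25) the other way.

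Markers of other tissues also varied between atrial arrays, and those named here were chosen after their values were seen. Of 10 foregut and lung epithelium genes 2 were higher in atria in the mean of the ages, Cdh1 and Foxa1, a share close to the 20.9% of all tested probe sets. Their summed intensity reached 6523, 10391 and 15505 on array 3 of the E13.5, E16.5 and E18.5 atria, against at most 4476 on any ventricular array. Sftpc, a surfactant protein of the lung, read 1745, 5694 and 10949 on these 3 arrays, against 63 to 334 on the other 12 atrial arrays and 71 to 248 on ventricular ones. Without the 3 arrays, 16 of the 17 probe sets were still called in the mean of the ages, and in the order of their 3 ages 10, 15 and 13 were. Calls over all 27256 tested probe sets fell to 2198 at E13.5 and 3454 at E18.5, from 3310 and 5314. Upk3b was then 1.93 and Msln 0.95 in the mean. Krt8 at E18.5 lost its call in 2 probe sets, with 0.57 for 1420647_a_at (adjusted p = 0.17) and 1.20 for 1435989_x_at (adjusted p = 0.053).

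Of 5 tested liver genes 2 were higher in atria in the mean of the ages, 0 were lower and 3 were not called. Their median difference was 1.28, and 20.9% of all tested probe sets were called higher. At E12.5 their mean log2 level, relative to all 36 arrays, was 0.38 to 3.33 in atria, against -1.39 to 0.04 in ventricles. At the later ages the chambers overlapped. Liver genes were highest on array 2 of the E12.5 atria and on array 2 of the E16.5 ventricles. There Alb read 6352 and 4237, against a median of 314 in atria and 216 in ventricles. Without these, 16 of the 17 were called in the mean of the ages. Myl2, the ventricular regulatory light chain of myosin, ranged from 594 to 20031 in atria, against 14090 to 25225 in ventricles. On 6 atrial arrays it was above 7806, which is 50% of the ventricular median. These were arrays 1 and 2 of E12.5, arrays 1 and 2 of E14.5, array 2 of E16.5 and array 1 of E18.5. Without them the E12.5 and the E14.5 atria were 1 array each, array 3, which the fit assumes to vary like the other groups. The mean difference of the ages was then 2.07 for Upk3b and 1.33 for Msln. In the same fit the atrial change from E12.5 to E18.5 of Msln was 1.67 (adjusted p = 0.07) and that of Wt1 was -0.67 (adjusted p = 0.13), both against that lone E12.5 array, on which Msln read 514, against 152 and 110 on the arrays left out. Dmkn was still called.

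Of 10 fibroblast and matrix genes 8 were higher in atria in the mean of the ages, against the same 20.9%, with Eln at 1.26 ± 0.23 SE and Fbln2 at 1.03 ± 0.10, and their summed intensity per array lay between 28277 and 71044 in atria, against 23402 and 49639 in ventricles. Array 1 of the E14.5 atria had the highest atrial Eln and Lum, 8760 and 5053, and the lowest atrial Upk3b, 1982. Of the urogenital ridge genes, a tissue that also expresses Wt1, 3 were tested, 0 were higher and 1 was lower in atria. Cardiomyocyte genes were called in both directions (2 higher and 2 lower of 8), and so were endothelial genes (2 and 2 of 5). Of all tested probe sets 20.9% were called higher, 21.5% lower and 42.4% in either direction. The part of any of these tissues in the differences of the 10 genes was not tested beyond these values.

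**Figure D4:**
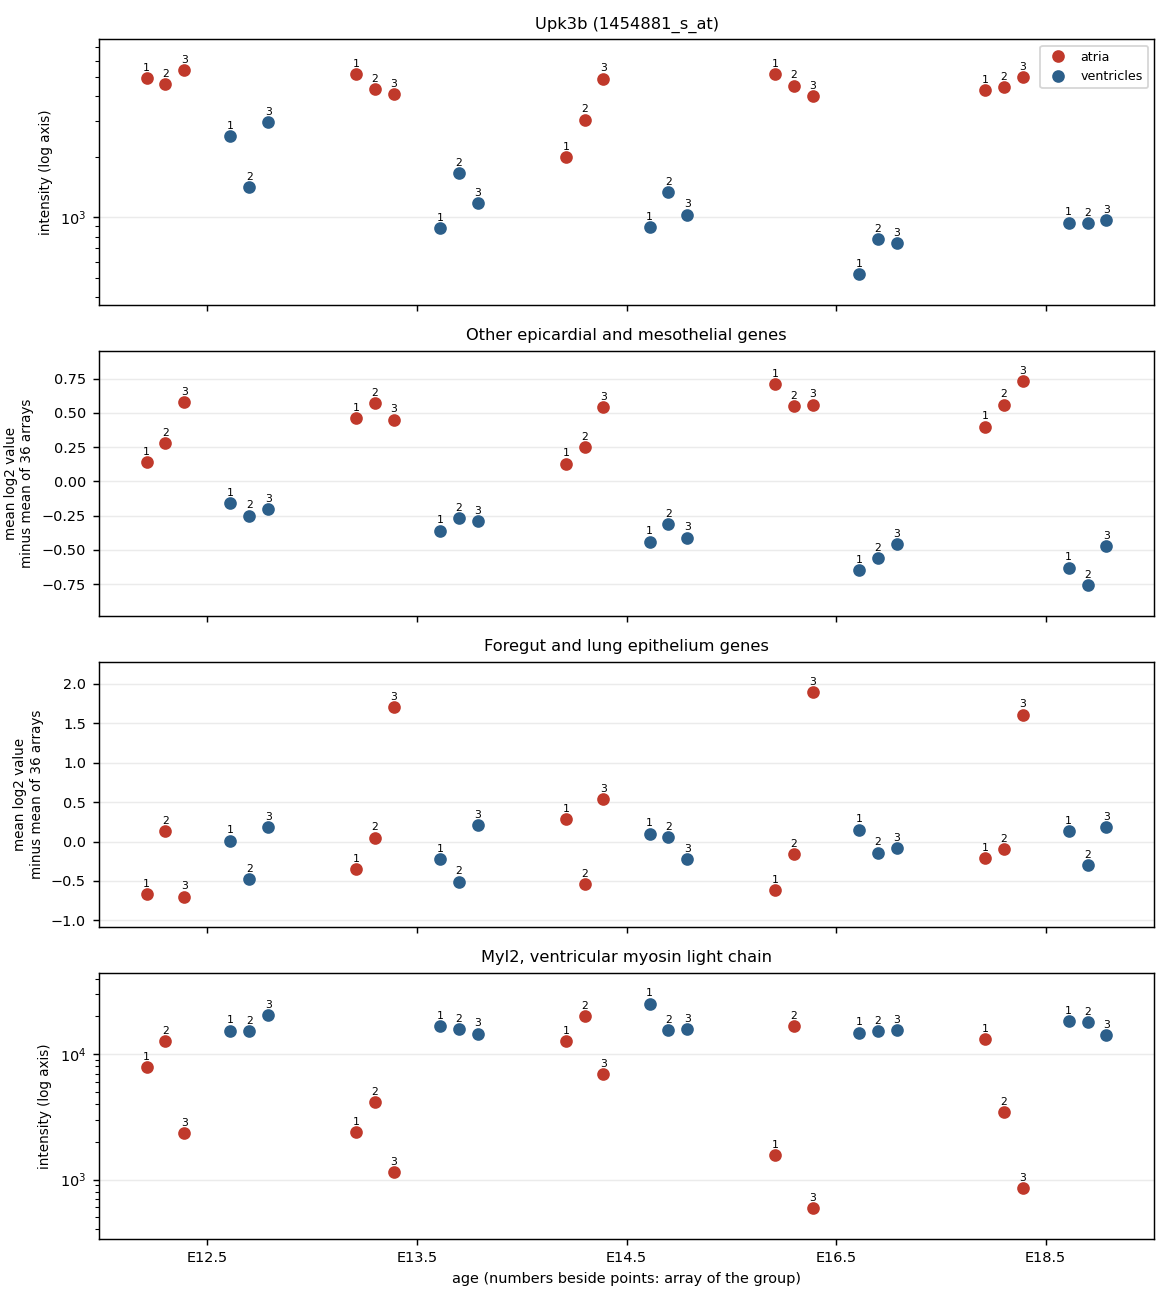
Upk3b intensity, the mean log2 level of 19 other epicardial and mesothelial genes, the same for 10 foregut and lung genes, and Myl2 intensity on each chamber array, with atria in red left of ventricles in blue at each age and the array number beside each point. The second panel keeps all atria above 0.1 and all ventricles below -0.1, and array 3 of the E13.5, E16.5 and E18.5 atria stands above 1.5 in the third.

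Likeness to Upk3b 1454881_s_at was measured by Pearson's r as a description over 12960 genes, 1 probe set each. Over the 10 chamber group means, the most alike were Sort1 (0.992), Slc39a8 (0.988), Krt7 (0.988), Tmem163 (0.986) and Gnao1 (0.982). Of the 5, Krt7 is a keratin, and the list of further genes above holds it. Over the 30 chamber arrays after the group mean was taken out, they were Apela (0.916), Aldh1a2 (0.864), Stk26 (0.852), Gldc (0.845) and Emilin2 (0.83). Among the 10 genes the same measure was 0.89 for Lrrn4, 0.84 for the second Upk3b probe set, 0.24 to 0.79 for Upk1b, 0.63 for Krt19 and 0.60 for Krt18. It was 0.34 for Wt1, 0.14 for Msln, and -0.01 for Tcf21 1417447_at. Arrays of a group share age, chamber and dissection. Most like Wt1 over the group means was Dcaf12l1 (0.966), and after the group mean was taken out it was Sqstm1 (0.748).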

How the data were processed

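The 36 arrays measured 45101 probe sets each in 12 groups of 3, assigned by title and source field. The authors deposited 1 linear intensity per probe set and array, and the steps behind it are not given in the sources at hand. Each array had a 2% trimmed mean of 500, so the deposited scaling was kept. Array medians lay between 143.8 and 210.7 and correlations within groups between 0.941 and 0.984. Precision is limited by having 3 arrays a group.

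The 64 control probe sets were left out, and symbols came from the platform's annotation, which can be old. A probe set was tested where 3 or more arrays exceeded 171.8, the overall median. R 4.3.3 with limma 3.58.1 fitted 12 group means to log2(intensity + 17), with an intensity trend, 24 residual and 5.7 prior degrees of freedom. The pseudocount of 17 is 10% of that median, and fold changes on this scale understate the change of low genes. Tests were two-sided and adjusted by Benjamini-Hochberg over 27256 probe sets within each of 13 comparisons. Each SE comes from the fit and pools the spread within all 12 groups.

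The members, gene lists, motifs and comparisons were chosen with earlier results of these data known. Of the further epicardial list the rule named the 8 called genes with the largest mean chamber difference, and any other gene is said to be chosen later. Each list gene used 1 probe set, the brightest on average. For likeness the 5 highest r were taken. Scripts were tested on simulated data. Same-numbered atria and ventricles of an age were checked for pairing: of 15 pairs, 1 had a correlation of residuals above 0.1 (range -0.34 to 0.16), so the numbers were not taken as pairs. Alternatives were the replicate number as a block, median centring, quantile normalization, a pseudocount of 1 or of 68, testing every probe set, a higher filter at 582.9 (the 75th percentile), fitting the compared groups by themselves and leaving out each array. Leaving out arrays with high lung genes, liver genes or Myl2 was added after seeing the data.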

Additional observations from a re-analysis of the deposited data

Results flagged for a closer look

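E18.5 minus E12.5 differed between atria and ventricles in 2 of the 17 probe sets, by the interaction term of the limma fit. Krt19 differed by 2.28 ± 0.44 SE on the log2 scale (adjusted p = 0.0026), and all 3 atrial arrays were below the ventricular ones at E12.5 and above them at E18.5. Upk1b 1435831_at differed by 1.34 ± 0.39 SE (adjusted p = 0.0457), and its other 3 probe sets were not called.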

How the results depend on the processing

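Of 4343 values of single probe sets under alternatives, 4136 kept their side of the threshold, 157 lost the call, 50 gained it and 0 changed the direction of a called difference. Direction was not compared where neither fit made a call, and the tests of any change have none. The cause of a lost call was not tested. Counts of the 17 probe sets that moved by over 1.5 times were as follows. With only the arrays of the groups compared (fewer samples) they were 1 at E12.5, 0 at E14.5, 4 for any change in atria, 5 for E18.5 minus E12.5 in atria and 9 for E11.5 minus E10.5. The difference between chambers in change had 1 call under median centring, no filter, quantile normalization, the replicate block and without the arrays with high lung, liver or Myl2 values, and 4 with the filter at the 75th percentile. The block changed no other count by that much. That filter also gave 5 for the atrial change, median centring gave 5 for the ventricular change, and a pseudocount of 1 gave 1 for E11.5 minus E10.5. Without the arrays with high Myl2, which leaves 1 array each of the E12.5 and E14.5 atria, there were 2 for any change in atria, 1 for the atrial change and 1 for E12.5 minus E11.5. Leaving out 1 array at a time gave 4 to 7 at E12.5, 4 to 8 at E14.5, 1 to 5 for the difference in change, 0 to 1 for E11.5 minus E10.5, 3 to 5 for the atrial change and 5 to 10 for the ventricular change.

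Counts over all 27256 probe sets moved more. With only the compared groups they were 1417 for any change in atria (4738 in the fit of all arrays), 279 at E12.5 (2637), 29 at E14.5 (1684), 407 for the difference in change (1030), 2218 for E11.5 minus E10.5 (315), 114 for E12.5 minus E11.5 (255) and 4051 for the atrial change (6610). Median centring gave 1730 at E12.5, 425 for the difference in change, 123 for E11.5 minus E10.5 and 165 for E12.5 minus E11.5, and the higher filter gave 7319 for the mean of the ages (11570). Without the arrays with high Myl2 they were 1653, 912, 339, 810 and 864 for any change in atria, E12.5, the difference in change, E12.5 minus E11.5 and the atrial change, and without those with high lung genes 2198 at E13.5 (3310), 3454 at E18.5 (5314) and 490 for the difference in change. Leaving out 1 array gave 2970 to 5902 for any change in atria, 1228 to 3419 at E12.5, 1986 to 2487 at E13.5, 545 to 1954 at E14.5, 3065 to 3844 at E16.5, 3507 to 4721 at E18.5, 452 to 2014 for the difference in change, 61 to 214 for E11.5 minus E10.5, 40 to 340 for E12.5 minus E11.5 and 3817 to 7409 for the atrial change.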
